A study of Mus musculus with 6 samples.

Results

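The miR-200 family was followed in small extracellular vesicles (sEV) of mouse cochlear explants through its 5 guide arms, mmu-miR-200b-3p, mmu-miR-200a-3p, mmu-miR-429-3p, mmu-miR-200c-3p and mmu-miR-141-3p, which are 5 of the 810 miRNAs in the table of counts analysed. They were taken by family name, with earlier results of these data known, and no measured value entered the rule. Explants of postnatal day 3 mice (ICR, of both sexes, by the study's methods), pieces of the auditory sensory organ kept in culture, received 50 µM cisplatin (Cis-sEV) or an equal volume of PBS (Ctrl-sEV) for 48 h in medium with sEV-free serum. Each of the 3 libraries per group held the sEV of about 80 explants, so a library is a pool of many animals' tissue. By the study's methods the explant was the sensory epithelium on its membrane, with the spiral ganglion and other epithelia dissected away. The cells it still holds are of more than one type and their vesicles are mixed, and fewer vesicles from one cell type cannot be told apart from less miRNA in each vesicle. Cis-sEV libraries held 1722359 to 1794175 miRNA reads and Ctrl-sEV libraries 528952 to 718597. The miR-183 cluster, which marks hair cells and other sensory cells, was read in every library, at a summed 54984 to 81525 CPM (reads scaled to a common total of miRNA reads). Replicates differed far more among the controls, with a biological coefficient of variation over all tested miRNAs of 1.55 in Ctrl-sEV and 0.369 in Cis-sEV.

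The miR-200 family is known as a keeper of epithelial identity. Its guide arms are loaded into Argonaute and repress the mRNAs of the transcription factors ZEB1 and ZEB2, which in turn switch off E-cadherin and other junction genes, and ZEB factors also repress the miR-200 genes. In the inner ear the family is found in epithelial cells rather than in the surrounding mesenchyme. A miRNA finds its targets mainly through its seed, bases 2 to 8 counted from the 5′ end, and the family has seeds of 2 kinds that differ by a single base.

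The 5 guide arms are shown with the seed in capitals, as listed in the deposited table and, with the same letters, in RefSeq (GRCm38.p6), because the comparison is made by seed and by cluster.
mmu-miR-200b-3p: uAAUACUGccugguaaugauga
mmu-miR-200c-3p: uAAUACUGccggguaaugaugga
mmu-miR-429-3p: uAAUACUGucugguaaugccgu
mmu-miR-200a-3p: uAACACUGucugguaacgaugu
mmu-miR-141-3p: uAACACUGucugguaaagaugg

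The first 3 share the seed AAUACUG, which pairs with CAGUAUU in a target, and the last 2 share AACACUG, which pairs with CAGUGUU. From mmu-miR-200b-3p to mmu-miR-200a-3p the change within the seed is U4C, with positions counted from the 5′ end. No other miRNA of the table carried either seed. Across the clusters the members come in near-copies. mmu-miR-200b-3p and mmu-miR-200c-3p differ at 2 of 22 compared bases (U11G and A22G, with 1 extra base at the end of mmu-miR-200c-3p), and mmu-miR-200a-3p and mmu-miR-141-3p also at 2 of 22 (C17A and U22G). For each pair the second difference is at position 22, so a read that ends early tells the pair apart at 1 base only. How reads that fit both were assigned is not given in the sources used here, and the split within these pairs is uncertain to that extent.

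The hairpins lie in 2 clusters on the minus strand of GRCm38. Mir200b, Mir200a and Mir429 lie within 1846 bases on chromosome 4 (chr4:156053905-156055750), inside an intron of the protein-coding gene Ttll10 and inside the noncoding gene Gm13648 in the GENCODE annotation. Of these, Mir429 overlaps an exon of Gm13648. Mir200c and Mir141 lie within 477 bases on chromosome 6 (chr6:124717914-124718390), inside an intron of the noncoding gene Gm15884, and Mir141 also overlaps an exon of Gm29008. The hairpin of Mir200b is shown, as an example of how each hairpin yields a 5p passenger arm and a 3p guide arm, with both arms in capitals and the guide at the 3′ side.
mmu-mir-200b: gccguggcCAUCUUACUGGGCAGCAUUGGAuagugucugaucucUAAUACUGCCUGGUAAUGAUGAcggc

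The family was abundant in both groups and took a larger part of the miRNA reads in Cis-sEV. The 5 guide arms together made up 4.66, 4.82 and 4.96% of all miRNA reads after cisplatin and 2.35, 2.97 and 3.17% after PBS. Every Cis-sEV share lay above every Ctrl-sEV share, and the 95% Wilson intervals ran from 4.63 to 4.69% in the lowest Cis-sEV library and from 3.13 to 3.22% in the highest Ctrl-sEV library. The intervals cover counting error only, since copies made by PCR were not told apart. The mean share in Cis-sEV was 4.81 ± 0.149% (SD, n = 3), and that in Ctrl-sEV 2.83 ± 0.431% (SD, n = 3). Their ratio was 1.70, which came to 1.34 once the libraries were scaled by edgeR's TMM factors.

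Most of this sum was mmu-miR-429-3p, which held 79.0 to 80.4% of the family's reads after cisplatin and 82.6 to 87.6% in the controls. The order of the levels was mmu-miR-429-3p, mmu-miR-200c-3p, mmu-miR-200a-3p, mmu-miR-200b-3p and mmu-miR-141-3p, in each of the 6 libraries. The mature forms are 22 or 23 bases long and a read covers one of them, so CPM were compared between members without a correction for length. How readily each sequence is ligated and amplified can also set such levels and was not tested. Neighbours in this order did not overlap in CPM over the libraries of a group, except mmu-miR-200a-3p and mmu-miR-200b-3p in Ctrl-sEV, where the lowest value of the first was 632 CPM and the highest of the second 684 CPM. By rank among the 810 miRNAs of a library, mmu-miR-429-3p stood at 7 or 8 in Cis-sEV and at 9 to 14 in Ctrl-sEV, while mmu-miR-141-3p stood at 78 to 82 and at 121 to 232.

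**Figure D1:**
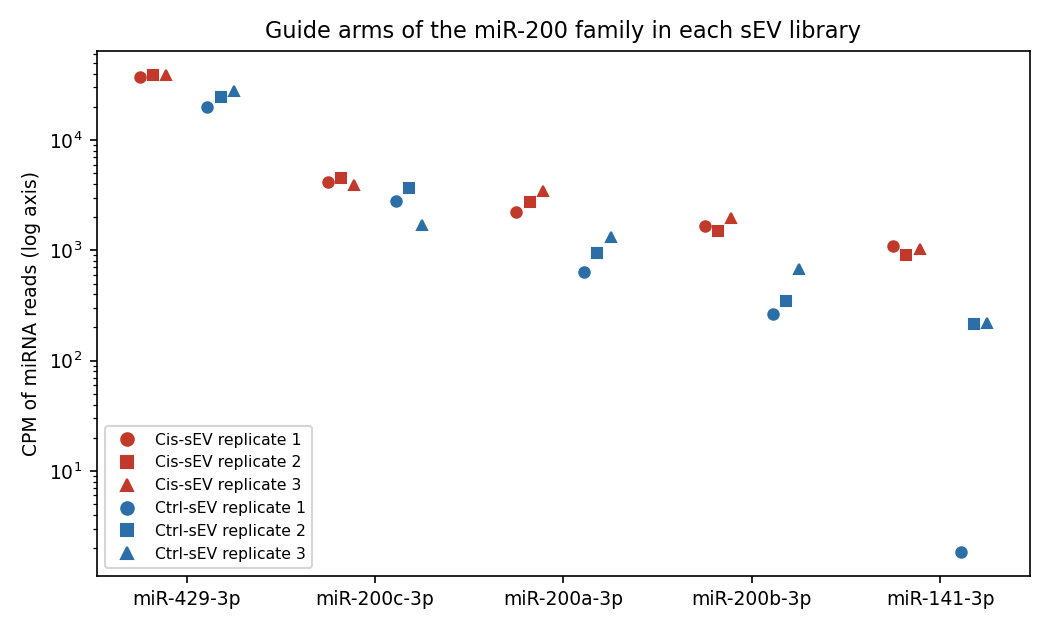
CPM of miRNA reads (log axis) of the 5 guide arms, with 1 point for each library, Cis-sEV in red and Ctrl-sEV in blue. The order of the members is the same in each library, the Cis-sEV points lie above the Ctrl-sEV points for each member, and mmu-miR-141-3p in Ctrl-sEV replicate 1 rests on 1 read.

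Each guide arm was next compared between the groups in one fit over all miRNAs with enough reads (edgeR's quasi-likelihood test, Benjamini-Hochberg adjustment over the 353 tested), to ask which miRNAs of the vesicles differ after cisplatin. As the study's methods set it, a call needed both an adjusted p no higher than 0.05 and a change of at least 1 on the log2 scale. All 5 passed the filter on low counts. Of them, 2 were called, mmu-miR-200b-3p and mmu-miR-200a-3p, against 30.0% of the tested miRNAs. Both were higher in Cis-sEV, as were 23.5% of the tested miRNAs, and 0 members were called lower, against 6.52%. At an unadjusted p under 0.05 there were 3 higher and 0 lower, against 31.2% of the tested miRNAs as higher and 41.6% in either direction. The calls over all tested miRNAs numbered 83 higher and 23 lower with TMM factors, and 97 and 11 with total miRNA reads. In CPM scaled by TMM, the groups did not overlap for 4 of the 5, with Cis-sEV higher, against 37.7% of the tested miRNAs, and Cis-sEV was the lower group without overlap for 0 of the 5, against 12.5%. The median log2 fold change was 1.21 over the 5 and 0.44 over all tested miRNAs. This order turned in 4 other fits. The medians were 1.24 against 1.42 under limma-voom and 1.23 against 1.55 with the replicate block. In fits of all 810 miRNAs they were 1.11 against 1.45 under the DESeq2 Wald test and 1.13 against 2.68 with no filter on low counts.

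The clearest change was in the chromosome 4 partners mmu-miR-200b-3p and mmu-miR-200a-3p, which carry the different seeds. mmu-miR-200b-3p had 2996, 2564 and 3554 reads in Cis-sEV (1672, 1489 and 1981 CPM) and stood at 267, 347 and 684 CPM in Ctrl-sEV. The lowest Cis-sEV library lay well above the highest Ctrl-sEV library. On the log2 scale the difference was 1.65 ± 0.37 (SE), or 3.14-fold, with an adjusted p of 0.0141 by edgeR. mmu-miR-200a-3p had 4014, 4752 and 6241 reads in Cis-sEV (2241, 2759 and 3478 CPM) and 341, 685 and 706 in Ctrl-sEV (632, 953 and 1335 CPM). Again the groups did not overlap. Here the difference was 1.21 ± 0.28 (SE), or 2.31-fold, with an adjusted p of 0.0164 by edgeR. Both calls depended on single libraries. That of mmu-miR-200b-3p was lost without Cis-sEV replicate 1 (adjusted p = 0.0678), Cis-sEV replicate 3 (0.0531), Ctrl-sEV replicate 1 (0.0543) or Ctrl-sEV replicate 2 (0.0648), and that of mmu-miR-200a-3p without Cis-sEV replicate 2 (0.0639), Cis-sEV replicate 3 (0.0664), Ctrl-sEV replicate 1 (0.0593) or Ctrl-sEV replicate 2 (0.0769). Of these libraries, leaving out Ctrl-sEV replicate 1 also took the log2 fold change of mmu-miR-200a-3p to 0.96. DESeq2, fitted to all 810 miRNAs rather than the 353, called neither (adjusted p = 0.0893 for mmu-miR-200b-3p and 0.21 for mmu-miR-200a-3p).

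The third member of the chromosome 4 cluster, mmu-miR-429-3p, is the most abundant and the most evenly measured of the family. It had 67098, 66376 and 70306 reads in Cis-sEV (37456, 38538 and 39186 CPM) and 10659, 17601 and 14712 in Ctrl-sEV (19747, 24494 and 27813 CPM). The groups did not overlap, and Cis-sEV was the higher. Scaled by TMM, Cis-sEV had 34010 ± 994 CPM (SD, n = 3), and the controls had 26961 ± 3026 CPM (SD, n = 3). The difference on the log2 scale was 0.34 ± 0.13 (SE), with an adjusted p of 0.1 by edgeR, and it was not called. That value is 0.10 below the median of all tested miRNAs.

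Of the chromosome 6 cluster, mmu-miR-200c-3p had 7433, 7772 and 7013 reads in Cis-sEV (4149, 4512 and 3909 CPM) and 1516, 2627 and 895 in Ctrl-sEV (2809, 3656 and 1692 CPM). In CPM the groups were apart, but scaled by TMM they overlapped, with 3312 to 4112 CPM in Cis-sEV and 1847 to 3689 CPM in Ctrl-sEV. The fitted log2 difference was 0.28 ± 0.28 (SE), with an adjusted p of 0.583 by edgeR, and lay 0.16 below the median of all tested miRNAs. The test did not separate the groups, which does not show that the level was the same in both.

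mmu-miR-141-3p, processed from the same cluster as mmu-miR-200c-3p, had the largest fitted fold change of the 5 and, in Ctrl-sEV, the widest relative spread. It had 1959, 1554 and 1850 reads in Cis-sEV (1094, 902 and 1031 CPM) and stood at 1.85, 216 and 219 CPM in Ctrl-sEV, the first of them from 1 read. The groups did not overlap, but Ctrl-sEV replicate 1 stood far below the other two controls, with an exact 95% interval of 0.0469 to 10.3 CPM. The fitted log2 difference was 2.54 ± 1.18 (SE), with an adjusted p of 0.157 by edgeR, and it was not called. Without Ctrl-sEV replicate 1 it was 1.90 ± 0.31 (SE), with an adjusted p of 0.0248, and was called, as were 23.7% of the 439 miRNAs of that fit in the same direction. Among the 114 miRNAs with at least 100 reads in both other Ctrl-sEV libraries, 3 had at most 3 reads in Ctrl-sEV replicate 1, mmu-miR-141-3p, mmu-miR-199b-3p and mmu-miR-214-3p, named after their values were seen. By the same limits there were 2 of 111 in Ctrl-sEV replicate 2 and 1 of 113 in Ctrl-sEV replicate 3. No Cis-sEV library had such a miRNA, but the limits are in reads and stand for lower CPM in these deeper libraries.

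How far the libraries are scaled moved the 5 values together. Over the 353 tested miRNAs the median was 0.80 with total miRNA reads, 0.44 with TMM factors, 0.41 with TMMwsp, 0.33 with DESeq2 size factors and 0.22 with upper-quartile factors, all on the log2 scale. mmu-miR-429-3p and mmu-miR-200c-3p were below that median and mmu-miR-200b-3p, mmu-miR-200a-3p and mmu-miR-141-3p above it under all 5. The log2 fold change of mmu-miR-200b-3p ran from 1.42 to 1.99, and it was called under each. That of mmu-miR-200a-3p ran from 0.97 to 1.54, and with upper-quartile factors it fell short of the limit of 1. That of mmu-miR-429-3p ran from 0.11 to 0.68 and that of mmu-miR-200c-3p from 0.05 to 0.62, and neither was called. With total miRNA reads mmu-miR-429-3p had an adjusted p of 0.0106 by edgeR but fell short of the limit on the fold.

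**Figure D2:**
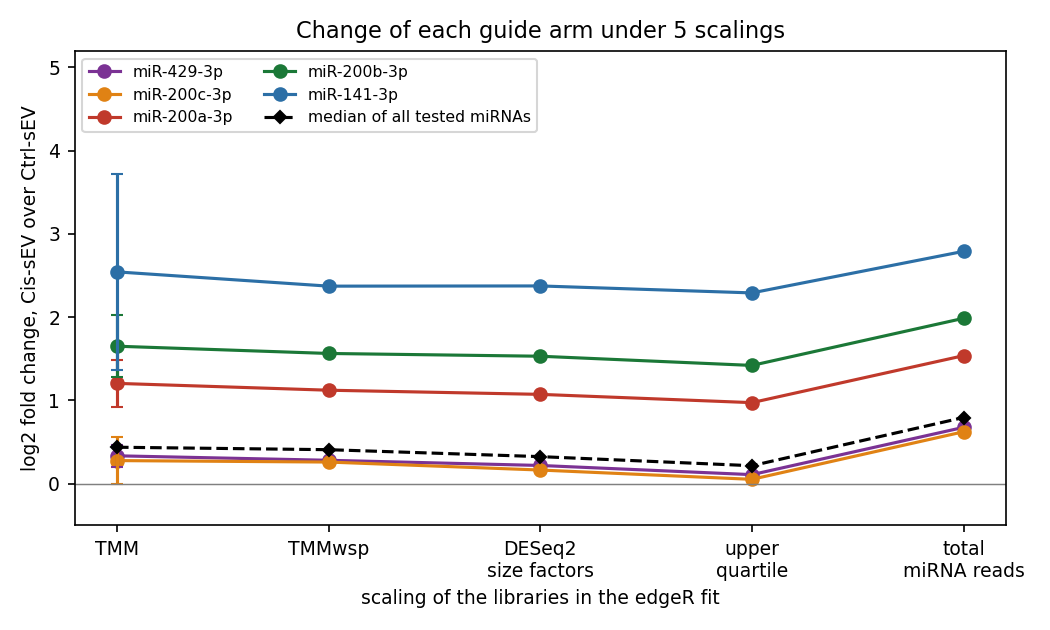
log2 fold change of each guide arm, Cis-sEV over Ctrl-sEV, under 5 scalings of the libraries in the edgeR fit, with the standard error drawn for TMM and the median of the 353 tested miRNAs as a dashed line. The 3 less abundant arms lie above the median line, and mmu-miR-429-3p and mmu-miR-200c-3p lie just below it.

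Ratios between members of the same library need no scaling, and 4 pairs were compared. Within the chromosome 4 cluster, mmu-miR-429-3p had 22.4, 25.9 and 19.8 reads for each read of mmu-miR-200b-3p in Cis-sEV and 74.0, 70.7 and 40.6 in Ctrl-sEV. The groups did not overlap, and the mean log2 ratio was 1.40 lower in Cis-sEV (difference -1.40, standard error 0.30, two-sided exact permutation test p = 0.1, adjusted over the 4 pairs p = 0.133, n = 3). With 3 libraries against 3 that p is the smallest the test can give. mmu-miR-200a-3p had 1.34, 1.85 and 1.76 reads for each read of mmu-miR-200b-3p in Cis-sEV and 2.37, 2.75 and 1.95 in Ctrl-sEV, a difference in log2 of -0.51 (standard error 0.20, exact permutation test p = 0.1, adjusted p = 0.133).

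Within the chromosome 6 cluster, mmu-miR-141-3p had 0.264, 0.2 and 0.264 reads for each read of mmu-miR-200c-3p in Cis-sEV and 0.00066, 0.059 and 0.13 in Ctrl-sEV. All Cis-sEV ratios lay above all Ctrl-sEV ratios, with a log2 difference of 3.81 (standard error 2.38, exact permutation test p = 0.1, adjusted p = 0.133), which was 1.46 without Ctrl-sEV replicate 1, whose value rests on 1 read, and 5.27 without Ctrl-sEV replicate 3. Between the clusters, mmu-miR-200c-3p had 2.48, 3.03 and 1.97 reads for each read of mmu-miR-200b-3p in Cis-sEV and 10.5, 10.6 and 2.47 in Ctrl-sEV. Here the groups overlapped, through Ctrl-sEV replicate 3 (difference -1.40, standard error 0.72, exact permutation test p = 0.3, adjusted p = 0.3). That difference was -2.10 without Ctrl-sEV replicate 3.

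**Figure D3:**
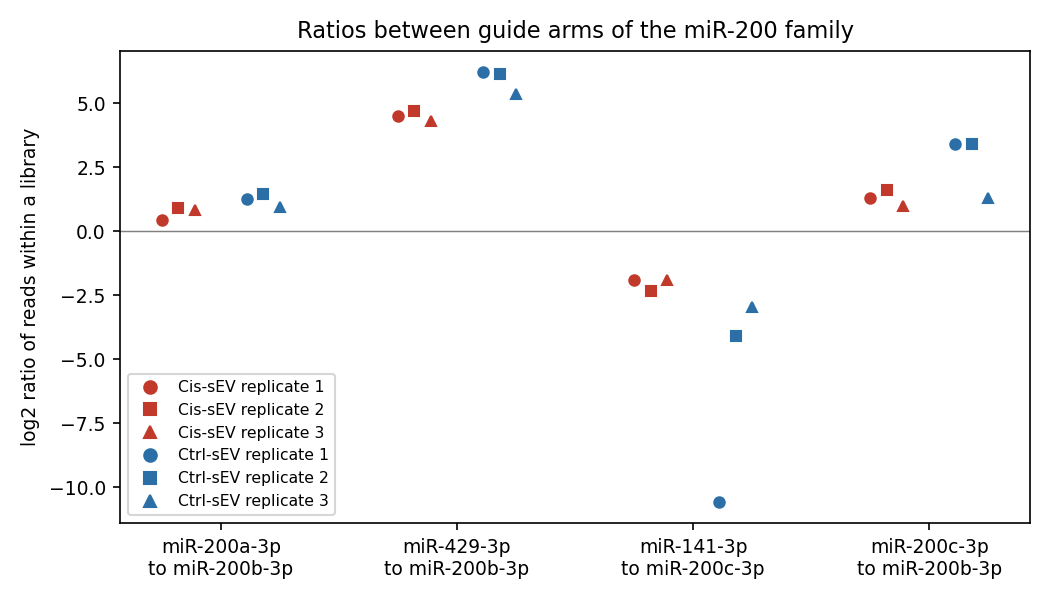
log2 ratio of reads between 2 guide arms of a library for the 4 pairs compared, with 1 point for each library, Cis-sEV in red and Ctrl-sEV in blue. Groups are apart for 3 pairs, and the ratio of mmu-miR-141-3p to mmu-miR-200c-3p in Ctrl-sEV replicate 1 lies far from the other points.

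The family was then summed by cluster. The chromosome 4 cluster took 4.14, 4.28 and 4.46% of all miRNA reads after cisplatin and 2.06, 2.58 and 2.98% in Ctrl-sEV, a ratio of the means of 1.69. Its mmu-miR-429-3p alone gave 87.8 to 90.5% of this cluster after cisplatin and 93.2 to 95.6% in the controls. The chromosome 6 cluster took 0.524, 0.541 and 0.494% in Cis-sEV and 0.281, 0.387 and 0.191% in Ctrl-sEV, a ratio of 1.82. Neither sum overlapped between the groups, and both were higher in Cis-sEV. There were 7.89, 7.90 and 9.04 reads of the chromosome 4 cluster for each read of the chromosome 6 cluster in Cis-sEV and 7.35, 6.66 and 15.6 in Ctrl-sEV, so that the balance of the clusters overlapped between the groups. These sums are a description and were not tested.

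Summed by seed, the groups lay further apart for one seed than for the other. Members with the seed AAUACUG (mmu-miR-200b-3p, mmu-miR-200c-3p and mmu-miR-429-3p) took 4.33, 4.45 and 4.51% of all miRNA reads after cisplatin and 2.28, 2.85 and 3.02% in Ctrl-sEV, a ratio of the means of 1.63. Members with the seed AACACUG (mmu-miR-200a-3p and mmu-miR-141-3p) took 0.333, 0.366 and 0.451% in Cis-sEV and 0.0634, 0.117 and 0.155% in Ctrl-sEV, a ratio of 3.43. As a part of the family's own reads, the AACACUG seed made up 7.15, 7.60 and 9.09% in Cis-sEV and 2.70, 3.94 and 4.90% in Ctrl-sEV, without overlap of the groups. The sum of the AAUACUG seed is mostly mmu-miR-429-3p, at 86.0 to 92.1% of its reads in any library. Of the AAUACUG members 1 of 3 was called and of the AACACUG members 1 of 2. By cluster, 2 of 3 were called on chromosome 4 and 0 of 2 on chromosome 6. Over all tested miRNAs 30.0% were called, and with so few members these counts cannot be told apart from that share. The 3 less abundant members had the larger fold changes and the 2 most abundant the smaller ones.

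**Figure D4:**
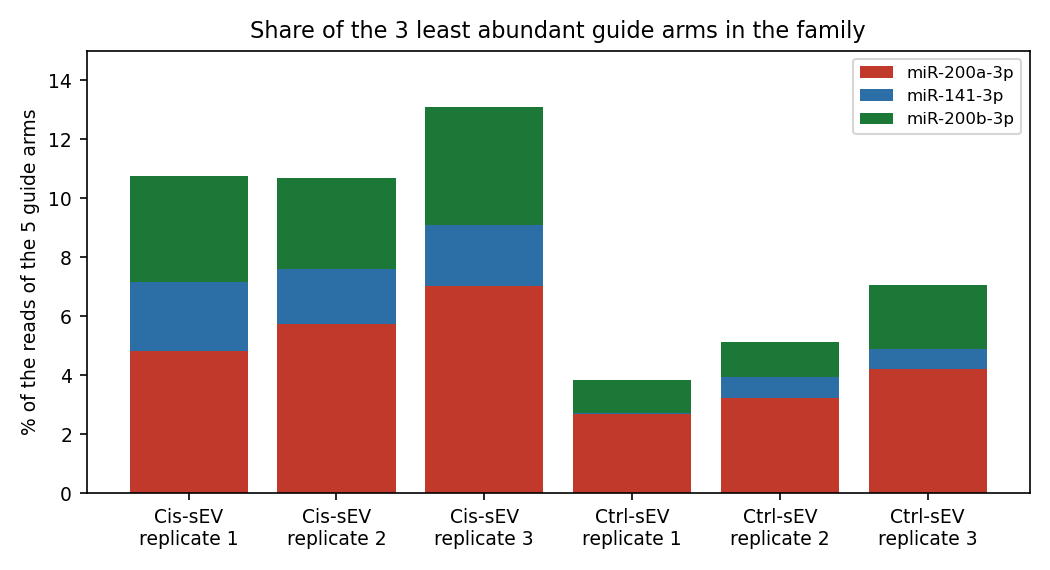
Bars give, for each library, the percentage of the reads of the 5 guide arms held by mmu-miR-200a-3p, mmu-miR-141-3p and mmu-miR-200b-3p, stacked. The stacks of the Cis-sEV libraries are taller than those of the Ctrl-sEV libraries, and mmu-miR-141-3p is too small to see in Ctrl-sEV replicate 1.

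The passenger arms, the strands that are mostly discarded when a hairpin is cut and loaded, were listed for 4 of the 5 hairpins, and mmu-miR-429-5p was not analysed here. They are shown because the reads of both arms were compared, again with bases 2 to 8 in capitals.
mmu-miR-200b-5p: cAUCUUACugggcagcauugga
mmu-miR-200a-5p: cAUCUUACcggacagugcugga
mmu-miR-200c-5p: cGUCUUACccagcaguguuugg
mmu-miR-141-5p: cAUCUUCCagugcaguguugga

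None of the passenger arms was called in the edgeR fit, and the controls were far apart. mmu-miR-200b-5p had 107, 78 and 76 reads in Cis-sEV and 0, 76 and 3 in Ctrl-sEV. mmu-miR-200a-5p had 114, 120 and 86 reads in Cis-sEV and 0, 92 and 1 in Ctrl-sEV. mmu-miR-141-5p had 53, 33 and 59 reads in Cis-sEV and 0, 97 and 0 in Ctrl-sEV. In all 3 the Cis-sEV libraries were close to each other, and of the controls Ctrl-sEV replicate 2 alone held more than 3 reads. mmu-miR-200c-5p had 46, 1 and 11 reads in Cis-sEV and 0, 0 and 4 in Ctrl-sEV, too few to pass the filter. Of the 3 tested, 0 were called, against 30.0% of all tested miRNAs. At an unadjusted p under 0.05 edgeR also found 0 of them, against 41.6%. With so few arms these counts cannot be told apart from those shares. The log2 fold changes were 0.21 (standard error 1.77) for mmu-miR-200b-5p, 0.30 (1.90) for mmu-miR-200a-5p and -0.92 (2.08) for mmu-miR-141-5p. Without Ctrl-sEV replicate 2 these became 3.73, 5.55 and 8.07, and edgeR called the last 2 higher (adjusted p = 0.0359 and 0.0305), as it did 22.4% of the 442 miRNAs of that fit. The 2 called values rest on 1 and 0 reads in the other Ctrl-sEV libraries and are no measure of the fold.

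As a percentage of the reads of both arms of its hairpin, mmu-miR-200b-5p made up 3.45, 2.95 and 2.09% in Cis-sEV, and 0, 23.4 and 0.822% in Ctrl-sEV. For mmu-miR-200a-5p it was 2.76, 2.46 and 1.36% in Cis-sEV, and 0, 11.8 and 0.141% in Ctrl-sEV. For mmu-miR-141-5p it was 2.63, 2.08 and 3.09% in Cis-sEV, and in Ctrl-sEV 38.5% in replicate 2 (95% Wilson interval 32.7 to 44.6%) and 0 in replicate 3, with only 1 read of both arms in replicate 1. The zeros allow shares of up to 2.08% for mmu-miR-200b-5p and 0.88% for mmu-miR-200a-5p in Ctrl-sEV replicate 1, and 2.59% for mmu-miR-141-5p in replicate 3, taken as 3 reads of the total. The upper 95% Wilson limits of the same zeros are 2.60%, 1.11% and 3.21%. The hairpin of Mir200c gave few passenger reads, with at most 0.615% in any library. Ctrl-sEV replicate 2 thus stood above every other library for the passenger share of 3 hairpins from both chromosomes. It was not alone in having reads of its own. Of 196 miRNAs with at least 50 reads in that library, 31 had at most 4 in each of the other Ctrl-sEV libraries. By the same limits there were 22 of 175 in Ctrl-sEV replicate 1 and 19 of 180 in Ctrl-sEV replicate 3. None was found in a Cis-sEV library, but the limits are in reads and stand for lower CPM in those deeper libraries.

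**Figure D5:**
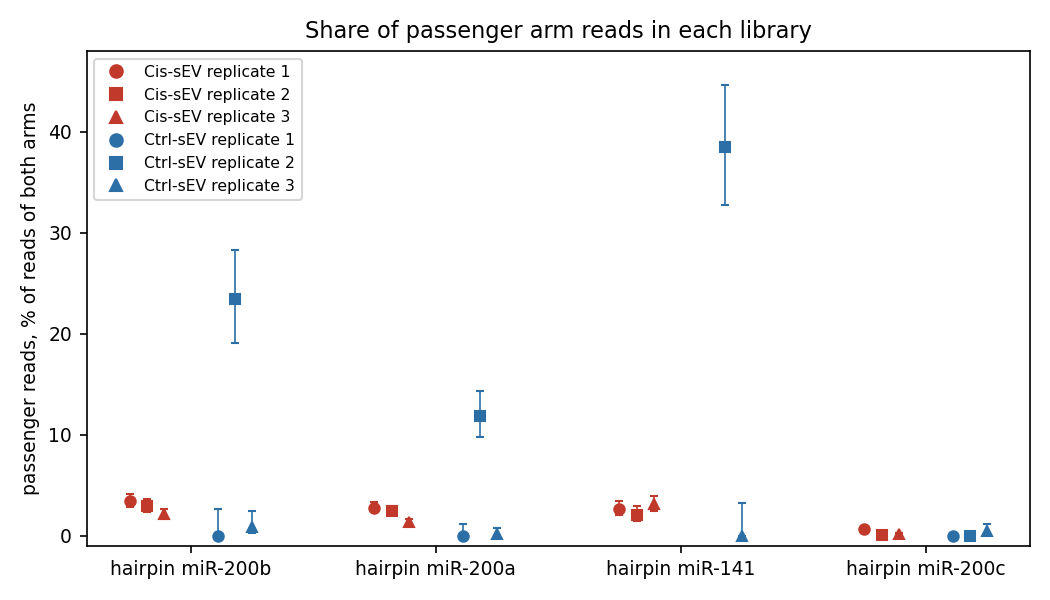
Reads of the passenger arm as a percentage of the reads of both arms, for 4 hairpins and each library, with 95% Wilson intervals that cover counting error only. Ctrl-sEV replicate 2 lies at 11.8 to 38.5% for 3 hairpins and the other libraries at or below 3.45%, and Ctrl-sEV replicate 1 is left out for the Mir141 hairpin, where it has 1 read.

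Other miRNAs of the cochlea were set beside the family by lists. Over all tested miRNAs 23.5% were called higher and 6.52% lower. Of 4 other epithelial miRNAs (mmu-miR-205-5p, mmu-miR-203-3p, mmu-miR-31-5p and mmu-miR-375-3p), 0 were called, with a median log2 fold change of 0.22, and their summed level was 1715 to 2255 CPM in Cis-sEV and 920 to 1891 CPM in Ctrl-sEV, which overlapped. At an unadjusted p under 0.05 edgeR found 0 of these 4, against the 41.6% of all tested miRNAs. mmu-miR-205-5p, which like the miR-200 family represses ZEB1 and ZEB2, had 52, 218 and 268 reads in Cis-sEV and 1, 0 and 125 in Ctrl-sEV. Of the 3 guide arms of the hair cell miR-183 cluster, 1 was called higher, mmu-miR-96-5p, by 2.08 ± 0.47 (SE) on the log2 scale, with an adjusted p of 0.0142 by edgeR. mmu-miR-183-5p went the other way without overlap of the groups, by -0.49 ± 0.15 (SE) with an adjusted p of 0.0419, short of the limit on the fold, and mmu-miR-182-5p stood at 0.18 with overlap. At an unadjusted p under 0.05 there were 1 higher and 1 lower of the 3. The cluster's summed level was 59073 to 81525 CPM in Cis-sEV and 54984 to 55757 CPM in Ctrl-sEV, but scaled by TMM the groups overlapped, at 50048 to 73377 and 55946 to 73189 CPM, and the mean was lower in Cis-sEV (60337 against 63054 CPM).

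Markers of other cell types were compared in the same way, beside the 23.5% of all tested miRNAs called higher and the 6.52% called lower. The share in either direction at an unadjusted p under 0.05 was 41.6% by edgeR. Of 6 mesenchymal miRNAs 0 were called, with 1 at an unadjusted p under 0.05, and the summed level was 6115 to 9878 CPM in Cis-sEV and 3089 to 5307 CPM in Ctrl-sEV. Scaled by TMM these sums overlapped, at 5504 to 9001 and 3100 to 5794 CPM, and the highest rests on mmu-miR-199a-3p in Cis-sEV replicate 2, with 6515 reads against 574 and 345 in the other Cis-sEV libraries. The groups also overlapped for 5 of the 6. Over all tested miRNAs the groups were apart, scaled by TMM, for 37.7% with Cis-sEV higher and 12.5% with Cis-sEV lower. Of 4 neuronal miRNAs 1 was called higher, mmu-miR-124-3p, with 109, 25 and 88 reads in Cis-sEV and 0 in each Ctrl-sEV library. It passed the filter through Cis-sEV alone. The study's RT-qPCR tested it without listing it among the miRNAs stably higher in Cis-sEV. Scaled by TMM, the groups overlapped for mmu-miR-9-5p, mmu-miR-128-3p and mmu-miR-138-5p. The list's sum was 2085 to 2257 CPM in Cis-sEV and 987 to 1451 CPM in Ctrl-sEV, without overlap here or scaled by TMM. Most of its reads were mmu-miR-9-5p in every library. Of the erythrocyte miRNAs both that could be tested were called lower, with a sum of 1153 to 1306 CPM in Cis-sEV and 1509 to 3330 CPM in Ctrl-sEV, and the third, mmu-miR-144-3p, was at 0 reads except for 2 in a single Cis-sEV library. Of 3 leukocyte miRNAs listed, 2 were tested and 0 called, also 0 at an unadjusted p under 0.05, with a sum of 430 to 674 CPM and 399 to 561 CPM, which overlapped and whose means changed order when scaled by TMM (472 against 526 CPM). The part of these cell types in the values of the miR-200 family was not tested.

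The miRNAs most like the family were sought among the 345 other tested miRNAs by Pearson's correlation over the 6 libraries, on log2(TMM-scaled CPM + 1), with the mean of the 5 guide arms. That mean was 11.68, 11.70 and 11.74 in Cis-sEV and 9.29, 10.51 and 10.74 in Ctrl-sEV, and was lowest in Ctrl-sEV replicate 1, where mmu-miR-141-3p had 1 read. The 3 highest were mmu-miR-224-5p (r = 0.99), mmu-miR-151-5p (r = 0.99) and mmu-miR-335-3p (r = 0.96), against a median of 0.54. Among the 345, 25 had an r of at least 0.9. By Spearman's correlation mmu-miR-224-5p had 0.83, and mmu-miR-151-5p and mmu-miR-335-3p had 0.94 each. The 6 points fall in 2 groups and share the libraries and their scaling, so these values are a description. mmu-miR-224-5p had 1973, 1737 and 1956 reads in Cis-sEV and 2, 64 and 102 in Ctrl-sEV, and mmu-miR-335-3p 946, 795 and 1074 against 0, 78 and 61, so that both, like mmu-miR-141-3p, were lowest in Ctrl-sEV replicate 1. mmu-miR-151-5p counted 7396, 6795 and 8592 in Cis-sEV and 616, 1598 and 1360 in the controls. None of the 3 was called.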

How the data were processed

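Small RNA of 18 to 30 nt from sEV was sequenced on the DNBSEQ platform in 3 Cis-sEV and 3 Ctrl-sEV samples. The authors used Bowtie2 for alignment to GRCm38.p6 and AASRA and CMSearch for annotation, and deposited a raw read count per mature miRNA and library. Their group averages were not used.

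Counts were tested with edgeR 4.0.16 (quasi-likelihood, TMM, filterByExpr, R 4.3.3), with Benjamini-Hochberg adjustment over the tested miRNAs. The filter kept miRNAs with at least 15 reads over all. They also had to reach the CPM of 10 reads at median depth in as many libraries as the smaller group held. The standard errors given for edgeR were derived from the log2 fold change and its test statistic. Lists were described by counts and medians, and single ratios by exact permutation tests (scipy 1.17.1). Alternatives were other scalings, no filter, DESeq2 1.42.0, limma-voom 3.58.1, a test on summed counts, a replicate block, miRBase names only, no fold limit, and each library left out. TMM-scaled sums of the lists, and the family median in each fit, were added after seeing the data. The tests were run on simulated counts with the same spread in both groups. That check does not cover the wider spread of the controls seen in these data. The members, their passenger arms, the 3 most similar miRNAs and the list members are named by rule. Members and lists were chosen with earlier results of these data known. Depth was 528952 to 1794175 miRNA reads, so that 0 reads allow up to 1.67 to 5.67 CPM, the level of 3 reads. Replicates are called biological by the study. The edgeR p-values set the difference between the groups against the spread between replicates, fitted as shared by both groups. The test on summed counts uses no such spread. The listed mmu-miR-142a arms were not analysed here.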

Additional observations from a re-analysis of the deposited data

How the results depend on the processing

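Among the guide arms, none changed direction under the 11 other settings or with 1 library left out. The call of mmu-miR-200b-3p was lost with no filter on low counts (log2 fold change 1.59) and under the DESeq2 Wald test (1.57), and that of mmu-miR-200a-3p with upper-quartile factors (0.97), with no filter (1.13), under the DESeq2 Wald test (1.11) and under limma-voom (1.24). mmu-miR-141-3p was called by the MA-plot test on summed counts (2.73), which has no replicate spread. With 1 library left out the log2 fold changes ran from 1.38 to 2.22 for mmu-miR-200b-3p, with 2 of 6 fits calling it, from 0.96 to 1.57 for mmu-miR-200a-3p, also with 2 of 6, and from 1.90 to 3.0 for mmu-miR-141-3p, with 1 of 6. The cause of these changes was not tested. The passenger arm mmu-miR-200b-5p turned to -0.063 with upper-quartile factors, and mmu-miR-141-5p to 3.40 under limma-voom. With 1 library left out mmu-miR-200b-5p ran from -0.40 to 3.73, mmu-miR-200a-5p from -0.32 to 5.55 and mmu-miR-141-5p from -1.53 to 8.07.

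Of the miRNAs in each fit, 30.0% were called in the reported one, 12.2% with limma-voom (30 higher), 60.6% with the MA-plot test (158 higher), and 15.5% (without Cis-sEV replicate 1) to 38.3% (without Ctrl-sEV replicate 3) with 1 library left out. With all 810 miRNAs in the fit, 9.38% were called by edgeR with no filter and 13.0% by the DESeq2 Wald test (62 and 82 higher). The number called lower was 11 with total miRNA reads, 14 with no filter, 13 with limma-voom, 56 with the MA-plot test, and 11 to 30 with 1 library left out. In TMM-scaled CPM the log2 ratio of the group means fell to 0.41 for the chromosome 4 cluster, 0.36 for the AAUACUG seed and 0.43 for the whole family. In comparisons chosen after seeing the data, the sums of the hair cell and leukocyte lists turned to log2 ratios of -0.064 and -0.16 in TMM-scaled CPM. The median of the guide arms less that of all miRNAs in the fit, 0.77 in the reported fit, turned to -1.55 with no filter, -0.34 under the DESeq2 Wald test, -0.19 under limma-voom and -0.32 with the replicate block, and was 0.13 (without Ctrl-sEV replicate 1) to 1.0 with 1 library left out.

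Cis-sEV and Ctrl-sEV share replicate numbers. Deviations of same-numbered libraries from their group means had correlations of -0.05, -0.18 and -0.01 over 353 miRNAs. For libraries of unlike number they ran from -0.12 to 0.16. With so few libraries these values show no sign of pairing but cannot exclude it. With the replicate block, 6.80% of the miRNAs were called, 13 higher and 11 lower, mmu-miR-200a-3p was not called (1.23, adjusted p = 0.0525), mmu-miR-200b-3p was (1.75, adjusted p = 0.0462), and mmu-miR-141-5p turned to 4.10.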
